A study of Sus scrofa with 35 samples.

Results

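Pig expanded potential stem cells (pEPSCs) carrying an OTX2 knockout were compared with wild-type pEPSCs by bulk RNA sequencing. The comparison used 6 of the 35 samples of the series, 3 knockout libraries against 3 wild-type libraries, and was chosen by the sample titles and column names. All 6 libraries are labelled as embryonic-tissue EPSCs, with no transgene or treatment named for either group. The knockout columns are numbered 1, 3 and 4 and the wild-type columns 1, 2 and 3, and these numbers are used as library names below. The 3 knockout columns share the prefix OTX2-KO1, which may stand for a single knockout line. No label says so, and none gives the edited part of the gene or says that libraries of a group came from separate cultures, so p-values measure only the spread between these libraries. The series concerns passage between totipotent and pluripotent states, and an OTX2 overexpression group of 3 libraries, fitted against the same wild-type libraries, is set beside some genes at the end.

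OTX2 is a paired-type homeobox transcription factor. In the mouse it helps move naive pluripotent cells towards the primed state, holds back germ cell fate in the epiblast, and later specifies forebrain and midbrain against the hindbrain, where GBX2 acts opposite to it. Expanded potential stem cells are cultured lines that keep some capacity for both embryonic and extraembryonic lineages.

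OTX2 (gene 100512643, chromosome 1 of Sscrofa11.1, 186028575 to 186039026) was at 99.5, 130 and 114 TPM (transcript abundance scaled for gene length and library total) in knockout libraries 1, 3 and 4, against 258, 252 and 260 TPM in wild-type libraries. The groups did not overlap, and knockout cells held 44.6% of the wild-type mean. The log2 fold change was −1.17 (SE 0.111, limma adjusted p = 0.000803). Since the edited part of the gene is not known, the transcript that remained does not show how much protein was left.

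The 3 knockout libraries were not alike. Mitochondrial genes took 22.4% of TPM in knockout library 1, 10.2% in library 3 and 10.3% in library 4, against 15.8%, 15.4% and 14.5% in wild type. Library 1 lay at least 1 log2 unit under the mean of libraries 3 and 4 for 1121 genes (9.15% of those tested) and as far above it for 26. Between libraries 3 and 4 the same limit was passed by 19 genes one way and 29 the other. The correlation of log2 values across genes was 0.975 or 0.976 between library 1 and libraries 3 and 4, 0.994 between libraries 3 and 4, 0.993 to 0.995 among wild-type libraries and 0.932 to 0.947 between the groups. The first principal component, which separated knockout from wild type, held 68.8% of the variance, and the second, which set library 1 against libraries 3 and 4, held 24.5%. Counts are therefore given also without library 1, for genes at 1 TPM or more in at least 2 of the remaining 5 libraries. The part of RNA quality, culture or genotype in this difference was not tested.

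**Figure D1:**
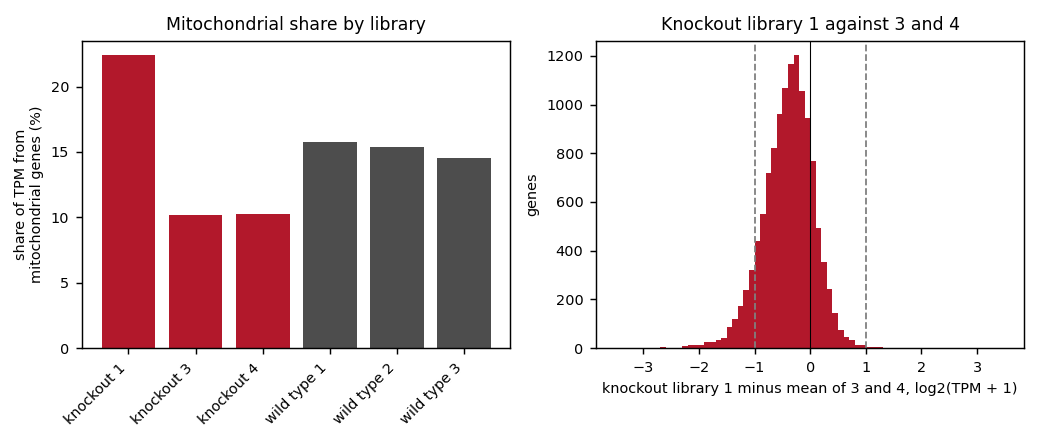
Left, share of TPM from mitochondrial genes (%) in each knockout library and each wild-type library; right, number of genes by the log2(TPM + 1) value of knockout library 1 minus the mean of libraries 3 and 4, with dashed lines at 1 log2 unit either way. Library 1 has the highest share, 22.4%, and its distribution lies left of 0, with a median of −0.36.

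Of 12255 genes tested, 1820 were higher in the knockout (14.9%) and 2732 lower (22.3%), at a limma adjusted p of 0.05 or less, and for every one of these 4552 genes (37.1%) the 3 knockout libraries lay on one side of the 3 wild-type libraries. By overlap alone, 20.3% of genes had all knockout values above and 35.3% all knockout values below the wild type. Changes were mostly modest: 500 of the higher and 734 of the lower genes passed 2-fold, and 67 and 55 passed 4-fold, that is a log2 fold change of at least 2 either way. The median over all genes was −0.11. Without library 1 the calls were 4029 higher (32.8%) and 3817 lower (31.1%), and without wild-type library 1, 2 or 3 the total fell to 2055, 2280 and 2421. Median-ratio scaling, which moved the median of all genes by about 0.1 to −0.00, gave 2965 higher (24.2%) and 2891 lower (23.6%). No gene called in both was called in opposite directions under any of these settings. Of the calls, 1668 higher and 2682 lower ones were also made in the same direction on TPM rescaled to nuclear genes (17.6% higher and 27.9% lower) and without library 1 under the original filter (32.1% and 31.4%). That filter left untested, without library 1, the 106 higher calls of genes with every wild-type library under 1 TPM. Those calls are missing from the 1668 for that reason. Every list count below stands beside these shares of all genes: 14.9% higher and 22.3% lower, or 32.8% and 31.1% without library 1. Leaving out library 1 thus raised the share of higher genes over all genes, not only in the lists. The median over all genes was then 0.02. Each gene named below as risen or fallen passed also in every fit without a single library that included it, unless its text says otherwise.

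The largest rise was that of ANXA1, a calcium-dependent phospholipid-binding annexin (chromosome 1, 226414200 to 226431963). It was at 696, 538 and 888 TPM in the knockout, against 10.8, 12.1 and 8.42 TPM in wild type, a 67.8-fold ratio of means (log2 fold change 5.94, adjusted p = 3.43e-05). All knockout libraries were far above all wild-type libraries, and library 1 lay between libraries 3 and 4. TDRKH, a Tudor-domain protein of the piRNA pathway, followed with 30.0, 48.5 and 33.5 TPM in the knockout against 0.580, 0.836 and 1.05 TPM in wild type (4.37). The neurofilament gene NEFM had log2 fold change 4.34, TRIML2 4.29 and the corticotropin-releasing hormone receptor gene CRHR1 3.93. Further down the ranking came SFN (3.5), the 14-3-3 sigma protein of epithelia, the calcium-binding S100A6 (3.25), the myelin protein PMP22 (3.15), the hyaluronan link protein HAPLN1 (3.08), the oocyte factor ZAR1 (2.96) and vasopressin, AVP (2.93).

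The lowest fold change was that of HTATIP2, at 0.681, 0.637 and 0.930 TPM in the knockout and 41.2, 41.7 and 46.5 TPM in wild type (−4.66, adjusted p = 3.02e-05). The knockout held 1.74% of its wild-type mean. VMO1 fell to 0.980, 0.562 and 1.74 TPM in the knockout, against 34.2, 28.1 and 24.8 TPM in wild type (−3.87). IRS4, an adaptor downstream of the insulin and IGF receptors, fell to 1.26, 2.78 and 2.95 TPM in the knockout, against 43.2, 43.4 and 50.1 TPM in wild type (−3.85). Also among the 15 lowest were the brain proteoglycan NCAN (−3.44), the carbonic anhydrase CA14 (−3.21), RRAGD, a Rag GTPase of mTORC1 signalling (−3.0), the lipocalin LCN2 (−2.94), the calcium channel subunit CACNB4 (−2.71), the basic helix-loop-helix factor TAL2 (−2.71) and the glutamine transporter SLC38A1 (−2.69). TAL2 was listed at 0, 0.0340 and 0.0461 TPM in the knockout, against 4.41, 6.56 and 6.34 TPM in wild type. SLC38A1 showed the spread within the knockout: it was at 2.49 TPM in library 1 and at 9.87 and 10.2 TPM in libraries 3 and 4, against 45.8 to 48.8 TPM in wild type.

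**Figure D2:**
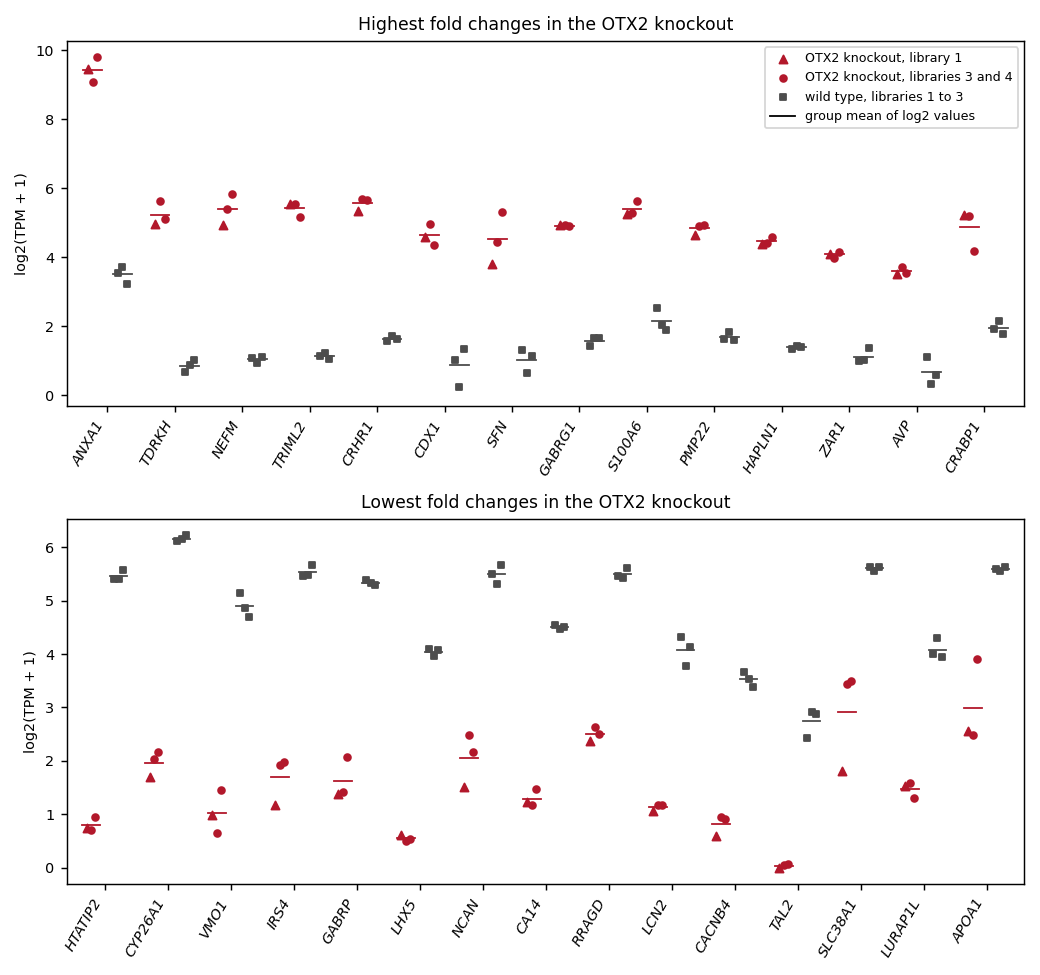
Level in each library, as log2(TPM + 1), of 14 of the 15 genes with the highest fold change and of the 15 with the lowest that passed every condition of the ranking; triangles are knockout library 1, circles knockout libraries 3 and 4, squares wild-type libraries, and lines the group means. Knockout and wild-type points do not overlap for any of the 29 genes, and ANXA1 stands highest.

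Some strongly risen genes were outside that ranking because they were near 0 in wild type and needed all 3 knockout libraries to pass the filter. This was so for 115 tested genes with every wild-type library under 1 TPM, which could enter only as higher (106 passed). A further 146 genes with every knockout library under 1 TPM could enter only as lower (140 passed). Fallen genes of this kind stayed in the ranking, since the wild-type libraries alone kept them in without knockout library 1. Among the lowest genes, HTATIP2, LHX5, CACNB4 and TAL2 were under 1 TPM in every knockout library and could enter only as lower. VGLL1, a cofactor of the TEAD factors, was at 35.1, 29.9 and 53.1 TPM in the knockout and 0.499, 0.417 and 0.360 TPM in wild type (4.78). CARTPT, a neuropeptide precursor, was at 17.4, 21.0 and 25.2 TPM in the knockout and listed at 0, 0.262 and 0 TPM in wild type.

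Genes of the primed and neural-biased epiblast moved both ways, and several factors fell. POU3F1 (OCT6), a POU factor of primed cells, was at 1.03, 1.86 and 1.11 TPM in the knockout, against 11.7, 12.6 and 13.6 TPM in wild type (−2.56, adjusted p = 0.000225). N-cadherin, CDH2, was at 4.78, 8.30 and 8.32 TPM in the knockout, against 46.4, 45.7 and 49.2 TPM in wild type (−2.60). The groups were apart by several fold for both genes. SOX11 (−1.57), ZIC5 (−1.09) and ZIC2 (−0.89), all transcription factors of early neural tissue, also fell. Of 18 tested genes of the formative and primed list, 4 rose and 5 fell, with a median of 0.25 beside −0.11 over all genes, and without library 1 the counts were 9 and 6. CRABP1, also on this list, was among the risen members (2.92, levels given below). The list as a whole thus did not move one way.

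LHX5, a LIM homeobox factor of the anterior neural plate (chromosome 14, 38446781 to 38456460), was at 0.525, 0.420 and 0.442 TPM in the knockout, against 16, 14.6 and 15.9 TPM in wild type (−3.5, adjusted p = 3.43e-05). FEZF1, a zinc-finger factor of the forebrain, was listed at 0, 0.0576 and 0 TPM in the knockout, against 2.49, 2.24 and 2.77 TPM in wild type (−1.78). HESX1, a homeobox repressor of the forebrain and pituitary, was at 38.6, 29.3 and 25.9 TPM in the knockout and 62.0, 65.9 and 60.0 TPM in wild type (−1.0). Other members of the same list rose. GBX2 was at 10.1, 10.2 and 12.4 TPM in the knockout and 0.133, 0.192 and 0.228 TPM in wild type (3.32). SIX6 (1.96), SOX3 (1.33) and MEIS2 (1.37) rose too. In all, 7 of 14 tested members of the forebrain and anterior neural list rose and 3 fell (median 0.48), and 8 rose and 4 fell without library 1. Of these 14 genes, 4 were under 1 TPM in every wild-type library and 2 in every knockout library.

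CDX1, a homeobox factor of the posterior embryo, was at 22.9, 30.5 and 19.4 TPM in the knockout, against 1.03, 0.170 and 1.55 TPM in wild type (3.77, adjusted p = 0.000472). Not all genes of the streak moved with it. EOMES, a T-box factor of streak and trophoblast, fell to 4.78, 5.32 and 6.80 TPM in the knockout, against 13.1, 13 and 14.3 TPM in wild type (−1.14), and FGF17 (−1.33) fell as well. MIXL1, a homeobox gene of the streak, did not pass (0.25, adjusted p = 0.594). The primitive streak and mesoderm list had 2 genes higher and 3 lower of 8 tested (median 0.28), and 4 higher and 3 lower without library 1.

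Many of the tested genes that handle retinoic acid passed, in both directions. Retinoic acid is made from retinol by RDH and ALDH1A enzymes, carried by CRABP and FABP5 proteins, sensed by RAR and RXR receptors, and degraded by CYP26 enzymes. CYP26A1 (chromosome 14, 104561394 to 104567099) was at 2.26, 3.07 and 3.5 TPM in the knockout, against 68.4, 70.2 and 73.7 TPM in wild type (−4.20, adjusted p = 3.68e-05). Its wild-type mean was 24.0-fold its knockout mean. FABP5 also fell, to 77.7, 64.2 and 80.0 TPM in the knockout, against 199, 205 and 196 TPM in wild type (−1.43). The retinol dehydrogenase RDH11 fell by 1.21 on the log2 scale.

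The receptor RARB, a direct target of retinoic acid signalling in many tissues, rose to 13.3, 12.0 and 12.1 TPM in the knockout, against 0.772, 1.13 and 0.791 TPM in wild type (2.83, adjusted p = 7.11e-05). DHRS3, which reduces retinaldehyde back to retinol, rose to 15.9, 19 and 17.7 TPM in the knockout, against 4.81, 4.71 and 4.94 TPM in wild type (1.67). CRABP1 was at 36.5, 35.3 and 17.1 TPM in the knockout and 2.75, 3.41 and 2.42 TPM in wild type (2.92). The orphan nuclear receptors NR2F1 (1.94) and NR2F2 (1.63) and the receptor RXRG (1.01) rose. The abundant CRABP2 did not pass (−0.22, adjusted p = 0.116). Of 16 tested members 10 rose and 4 fell, the same counts with and without library 1, with a median of 0.62 beside −0.11 over all genes. The calls of RARA, RBP4 and RDH10 (higher) and of RXRA (lower) are in this count but were each lost without at least 1 library (highest adjusted p 0.0820, 0.0552, 0.0927 and 0.113), and so was 1 further call not named here.

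**Figure D3:**
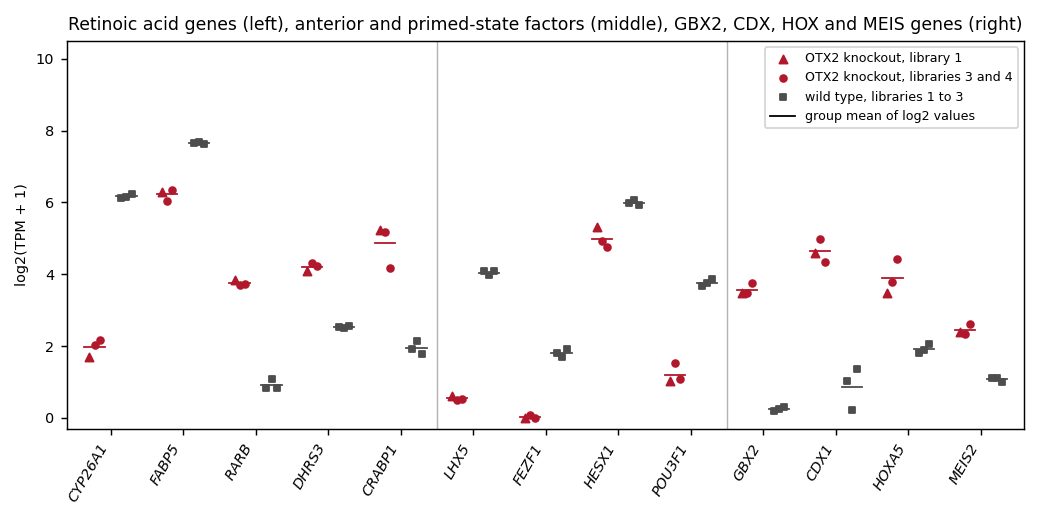
Level in each library, as log2(TPM + 1), of retinoic acid genes (left), anterior and primed-state factors (middle) and GBX2, CDX1, HOXA5 and MEIS2 (right); triangles are knockout library 1, circles knockout libraries 3 and 4, squares wild type, and lines the group means. CYP26A1, LHX5 and POU3F1 lie lower in the knockout and RARB, GBX2 and CDX1 higher, with no overlap.

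The core pluripotency factor POU5F1 (OCT4) stayed abundant in the knockout. It was at 1681, 2012 and 1958 TPM in the knockout, against 1524, 1561 and 1587 TPM in wild type (0.27, adjusted p = 0.036). That call was lost without any single wild-type library and without knockout library 3 or 4. SOX2 (adjusted p = 0.543) and NANOG (adjusted p = 0.448), a symbol that RefSeq gives to more than 1 pig gene, did not pass. With knockout library 1 unlike the others, this does not show that the SOX2 and NANOG levels were kept. LIN28A, an RNA-binding repressor of let-7 microRNAs, was at 211 TPM in knockout library 1 and 1156 and 1091 TPM in libraries 3 and 4, against 1406, 1489 and 1551 TPM in wild type. It did not pass over all libraries (−1.20, adjusted p = 0.161) but did as lower without library 1 (−0.40, adjusted p = 0.000407). UTF1, a chromatin factor of pluripotent cells, rose to 78.9, 81.4 and 79.5 TPM in the knockout, against 13.2, 10.9 and 17.2 TPM in wild type (2.48). ESRRB fell to 1.06, 0.957 and 2.11 TPM in the knockout, against 4.62, 3.73 and 3.82 TPM in wild type (−1.12). Of 14 core genes 3 rose and 1 fell, beside 14.9% and 22.3% of all genes. The counts without knockout library 1 were 6 and 3, beside 32.8% and 31.1%. The core median was −0.19 over all libraries and 0.06 without library 1, beside −0.11 and 0.02 over all genes. The summed TPM of 6 fixed pluripotency markers was 2286, 3903 and 3786 in the knockout and 3575 to 3830 in wild type. All 6 markers were in the table, and the sum was lowest in library 1.

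Several genes of the naive state and the germ line rose. Of 12 tested naive genes 5 rose and 2 fell (median 0.31), and 8 and 2 without library 1. Of the 7 calls over all libraries, 3 were lost without at least 1 library. DPPA5 was at 6.08, 6.30 and 3.09 TPM in the knockout and 0.189, 0.469 and listed at 0 TPM in wild type (2.31), and DPPA3, a protector of maternal imprints, at 6.02, 4.44 and 4.50 TPM in the knockout and 0.455, 0.631 and 0.100 TPM in wild type (2.11). These 2 genes were under 1 TPM in every wild-type library and could enter only as higher. Of 11 tested germ cell and piRNA genes 8 rose and 1 fell (median 1.18), and 8 and 3 without library 1. SOX15, an SRY-type factor, was at 90.9, 99.1 and 86.7 TPM in the knockout and 23.4, 21.7 and 24.5 TPM in wild type (1.94). TFAP2C, an AP-2 factor of germ cells and trophoblast, was at 41.9, 57.2 and 55.1 TPM in the knockout and 17.2, 15.6 and 17.5 TPM in wild type (1.55). HENMT1, the methyltransferase of piRNA ends, rose (1.18), while TDRD12 fell (−1.34). None of the 4 fixed germ cell markers, DDX4, DAZL, NANOS3 and PRDM1, was in the table, and they were not analysed here. The DND1, PRDM14 and TDRD7 calls in this list were lost without at least 3 of the libraries in turn.

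Simple-epithelium keratins, the filaments of early epithelia, rose at a high level. KRT8 was at 3278, 4285 and 4839 TPM in the knockout and 1132, 1189 and 1154 TPM in wild type (1.82), and its partner KRT18 at 2427, 2545 and 2868 TPM in the knockout and 527, 558 and 523 TPM in wild type (2.28). The groups did not overlap for either gene, and library 1 was the lowest of the knockout for both. KRT19 (0.68) and the tight-junction claudins CLDN4 (1.36), CLDN3 (1.31), CLDN6 (0.98) and CLDN7 (0.57) rose with them. DSP, the desmoplakin of desmosomes, fell to 37.6, 96.7 and 104 TPM in the knockout, against 258, 240 and 282 TPM in wild type (−1.83), and the GTPase RAB25 also fell (−0.91). E-cadherin, CDH1, was at 341, 629 and 665 TPM in the knockout and 264, 257 and 277 TPM in wild type (0.97, adjusted p = 0.02), a call lost without any one of 5 libraries (highest adjusted p 0.0733) but made without library 1 (1.28). Of 29 tested keratin and junction genes 13 rose and 3 fell (median 0.30), and 19 and 8 without library 1, and 6 of the 16 calls were lost without at least 1 library.

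Several annexins and S100 proteins rose. Of 16 tested, 8 rose, 8 did not pass and none fell (median 0.60), and 14 rose and 1 fell without library 1. Beside ANXA1 and S100A6, ANXA5 was at 27.5, 28.9 and 34.5 TPM in the knockout and 8.35, 9.60 and 7.81 TPM in wild type (1.70). ANXA2 (0.65) and its partner S100A10 (1.04) rose as well. The largest S100A10 value, 297 TPM, was that of library 1.

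Genes used to mark trophoblast and amnion gave a mixed picture. TFAP2A, an AP-2 factor of both tissues, was at 4.37, 4.48 and 7.27 TPM in the knockout and 1.29, 0.708 and 1.51 TPM in wild type (1.54). The epithelial factor ELF3 rose (1.41), as did GRHL3 (1.55), which was under 1 TPM in every wild-type library and could enter only as higher. GABRP, used as an amnion marker, fell to 1.61, 1.68 and 3.22 TPM in the knockout, against 40.8, 39.2 and 38.3 TPM in wild type (−3.71), and CLDN10 fell (−1.0). Of 8 tested trophoblast genes 4 rose and 1 fell (median 0.90, 6 and 1 without library 1), and of 8 amnion genes 2 rose and 2 fell (4 and 2 without library 1). Only 1 of 7 fixed trophoblast markers (TFAP2A) and 1 of 4 amnion markers (GABRP) were in the table. In bulk RNA, a change in the number of cells of a type and a change in RNA per cell cannot be told apart. The Hippo pathway list had 1 gene higher and 2 lower of 18 tested (median 0.03), beside 14.9% and 22.3% of all genes. The counts without knockout library 1 were 8 and 3, beside 32.8% and 31.1%. This list holds VGLL1, which was under 1 TPM in every wild-type library and could enter only as higher. Its kinase LATS1 fell (−1.03).

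Most tested genes of mesenchyme and the contractile cytoskeleton rose. Of 16 tested, 11 rose and none fell (median 0.89), and 13 rose and none fell without library 1. MYL9, a myosin light chain, was at 286, 260 and 279 TPM in the knockout and 106, 97.5 and 113 TPM in wild type (1.37). The factor TWIST2 was at 13.6, 15.9 and 23.0 TPM in the knockout and 2.44, 3.70 and 3.35 TPM in wild type (2.13). Collagen COL1A1 (2.36), tropomyosins TPM2 (1.18) and TPM1 (0.96), the actin-binding TAGLN (1.35), smooth muscle actin ACTA2 (0.94) and vimentin, VIM (0.71), rose too. Of 9 fixed fibroblast markers, 5 were in the table, and their summed TPM was 324, 324 and 392 in the knockout against 148, 165 and 160 in wild type, most of it from VIM and TAGLN. The part of other cells in these rises was not tested.

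In the matrix and integrin list, 7 of 29 rose and none fell (median −0.07), against 15 higher and 3 lower without library 1 (median 0.32). The sign of this median also changed under median-ratio scaling (0.04). The median over all genes moved too, from −0.11 to 0.02 without library 1. In library 1, 14 of the 29 genes lay at least 1 log2 unit under libraries 3 and 4. COL6A2, a chain of collagen VI, was nevertheless high in each knockout library, at 181, 233 and 203 TPM against 50.6, 46.6 and 59.5 TPM in wild type (1.96). LAMA4, a laminin chain, rose (1.65), as did the matrix glycoprotein SPARC (0.98).

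Genes of the NODAL pathway moved both ways. NODAL itself was at 39.6, 50.5 and 42.3 TPM in the knockout and 24.8, 22.6 and 22.9 TPM in wild type (0.88), the related ligand GDF3 rose (1.15), and FOXH1, the SMAD partner factor of the pathway, was at 75.8, 104 and 104 TPM in the knockout and 41.9, 37.6 and 36.8 TPM in wild type (1.25). The secreted antagonist CER1 fell to 2.58, 3.60 and 7.23 TPM in the knockout, against 17.4, 18.8 and 18.0 TPM in wild type (−1.89), and the repressor SKIL fell (−1.03). LEFTY2 was at 252, 356 and 466 TPM in the knockout and 690, 620 and 713 TPM in wild type (−0.95), a call lost without wild-type library 1 or 3 (highest adjusted p 0.0554). Of 23 tested members 5 rose and 6 fell, with a median of 0.00, beside 14.9% and 22.3% of all genes. Of these 11 calls, 4 were lost without at least 1 library. The counts without knockout library 1 were 9 and 6, beside 32.8% and 31.1%.

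WNT genes also moved both ways. The ligand WNT3 rose to 9.55, 18.8 and 15.5 TPM in the knockout, against 3.96, 4.33 and 4.64 TPM in wild type (1.51), while WNT8A fell (−1.17). The receptors FZD3 (−1.52) and FZD7 (−1.48) and the R-spondin receptor LGR4 (−0.99) fell. The antagonist SFRP1 fell to 31.5, 44.6 and 46.5 TPM in the knockout, against 110, 110 and 114 TPM in wild type (−1.44), and its relative FRZB rose at a low level (0.88). Of 31 tested, 6 rose and 9 fell (median 0.11), beside 14.9% and 22.3% of all genes. Of these 15 calls, 6 were lost without at least 1 library. The counts without knockout library 1 were 13 and 9, beside 32.8% and 31.1%.

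In the BMP list the receptor ACVR1 rose to 46.3, 64.3 and 59.7 TPM in the knockout, against 23.7, 17.9 and 21.1 TPM in wild type (1.40), while the receptor BMPR1A (−0.68) and the signal transducer SMAD5 (−1.02) fell. The target ID3 fell to 34.1, 29 and 56.8 TPM in the knockout, against 91.0, 88.2 and 101 TPM in wild type (−1.26). ID1 was higher (0.80, adjusted p = 0.0317), a call lost without any one of 5 libraries. Of 18 tested, 5 rose and 4 fell, beside 14.9% and 22.3% of all genes. Of these 9 calls, 5 were lost without at least 1 library. The counts without knockout library 1 were 9 and 5, beside 32.8% and 31.1%.

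Of the FGF-ERK genes, SPRY4, a feedback inhibitor, rose to 19.3, 41.5 and 57.4 TPM in the knockout, against 7.15, 6.30 and 8.45 TPM in wild type (2.16). The ligands FGF19 (1.23) and FGF2 (0.83) rose and FGF8 fell (−0.87). Of 27 tested, 6 rose and 3 fell (median 0.24), beside 14.9% and 22.3% of all genes. Of these 9 calls, 4 were lost without at least 1 library. The counts without knockout library 1 were 16 and 5, beside 32.8% and 31.1%. In that library 9 of the 27 genes lay at least 1 log2 unit under libraries 3 and 4.

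In the insulin-like growth factor axis, some of the secreted binding proteins rose. IGFBP3 was at 30.6, 50.9 and 59.0 TPM in the knockout and 5.01, 5.12 and 6.42 TPM in wild type (2.83), and IGFBP7 (2.29) and IGFBP4 (1.94) rose with it. IGFBP2, the most abundant of the 6 tested, was at 192, 235 and 257 TPM in the knockout and 259, 259 and 261 TPM in wild type. It did not pass (−0.20, adjusted p = 0.216), nor did IGFBP5 (adjusted p = 0.134). Without library 1, IGFBP5 was higher (1.08, adjusted p = 0.0013) and IGFBP2 again did not pass. The fetal RNA-binding proteins IGF2BP3 (−1.01) and IGF2BP2 (−0.88) fell beside IRS4. The receptor IGF1R was at 4.57, 9.0 and 12.6 TPM in the knockout and 20.4, 20.7 and 26.2 TPM in wild type (−1.35, adjusted p = 0.0167), a call lost without any one wild-type library. Of 19 tested members 5 rose and 5 fell (median −0.17), and 9 and 5 without library 1 (median 0.15). The median over all genes was −0.11, and 0.02 without library 1.

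GABA receptor subunits, which form chloride channels opened by the transmitter GABA, moved both ways. Of 11 subunit genes tested, a family taken up after its values were seen, 5 rose and 3 fell, and 8 are shown. Over all genes, 14.9% rose and 22.3% fell. GABRB2 was at 10.2, 11.8 and 12.3 TPM in the knockout and 0.531, 0.593 and 0.409 TPM in wild type (3.04). With every wild-type library under 1 TPM, it could enter only as higher. The neighbours GABRG1 and GABRA2 on chromosome 8 both rose, GABRG1 to 29.3, 29.6 and 28.8 TPM in the knockout, against 1.67, 2.14 and 2.14 TPM in wild type (3.35), and GABRA2 by 0.92. The 3 knockout values of GABRG1 lay within 1 TPM of each other.

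On chromosome 1, GABRG3 fell, while GABRA5 did not pass over all libraries but was lower without knockout library 1 (−0.26, adjusted p = 0.0444). On chromosome X, GABRA3 was listed at 0, 0.0997 and 0 TPM in the knockout, against 2.08, 2.87 and 2.05 TPM in wild type (−1.68), and GABRE did not pass. With every knockout library under 1 TPM, GABRA3 could enter only as lower. GABRP, on chromosome 16 (53205616 to 53228765), fell as given above. A list of some of these subunits and of neurotransmission genes, which does not hold GABRG1 or GABRG3, had 5 genes higher and 2 lower of 13, and 6 and 3 without library 1.

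**Figure D4:**
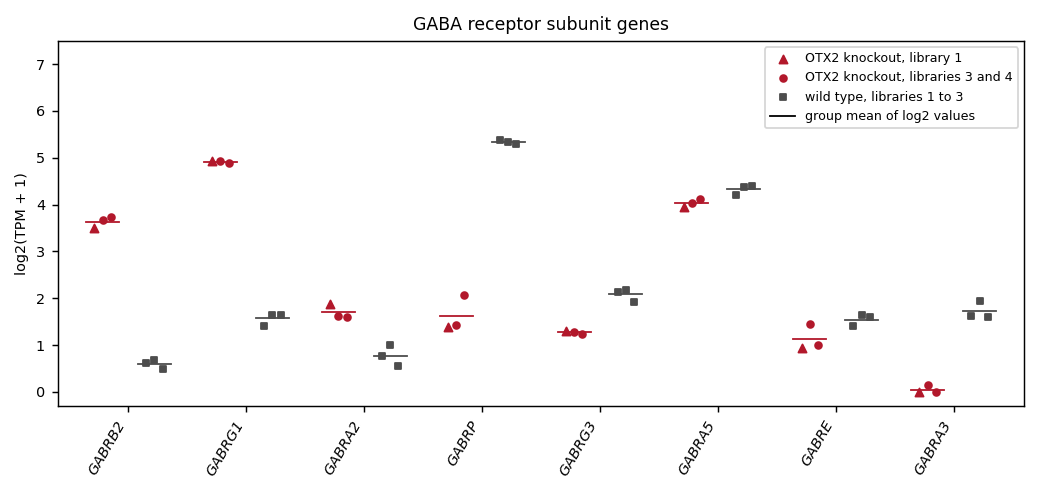
Level in each library, as log2(TPM + 1), of 8 GABA receptor subunit genes; triangles are knockout library 1, circles knockout libraries 3 and 4, squares wild type, and lines the group means. GABRB2, GABRG1 and GABRA2 lie higher in the knockout, and GABRP, GABRG3 and GABRA3 lie lower.

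Cholesterol synthesis genes mostly fell. Of 23 tested, 12 fell, where the share over all genes was 22.3%, and 1 rose (median −0.71), and 16 fell and 1 rose without library 1 (median −0.39). HMGCS1, which makes HMG-CoA, was at 138, 189 and 202 TPM in the knockout and 700, 751 and 720 TPM in wild type (−2.05, adjusted p = 0.000253). FDPS, ACAT2, CYP51 and MSMO1, which act along the same pathway, fell by 0.75, 0.78, 0.81 and 1.12 on the log2 scale. The cholesterol carrier STARD4 fell (−2.06). DHCR7, the last step of one branch, was the member that rose, at 109, 108 and 114 TPM in the knockout and 74.7, 77.1 and 77.1 TPM in wild type (0.53). APOE, which carries cholesterol in lipoproteins, fell to 115, 144 and 129 TPM in the knockout, against 619, 659 and 692 TPM in wild type (−2.34), and APOA1 fell too (−2.61).

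Some nuclear genes of oxidative phosphorylation rose by small amounts. Of 24 tested, 12 rose, 12 did not pass and none fell (median 0.31), and 14 rose and 3 fell without library 1 (median 0.31). NDUFB8 of complex I was at 348, 416 and 377 TPM in the knockout and 195, 204 and 186 TPM in wild type (0.96), and NDUFA2 (0.95) and COX6A1 of complex IV (0.42) rose. Of the 12 calls, 7 (ATP5B, COX5B, CYCS, NDUFA1, NDUFA4, NDUFS8 and NDUFV1) were lost without at least 1 library. None of 13 mitochondrially encoded genes passed over all libraries (median −0.00). Without library 1, 10 of the 13 were lower (median −0.32), and 6 of the 13 were at least 1 log2 unit higher in library 1 than in libraries 3 and 4.

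Among glycolysis genes 2 rose and 6 fell of 22 tested (median −0.29), beside 14.9% and 22.3% of all genes. Of these 8 calls, 3 were lost without at least 1 library. The counts without knockout library 1 were 7 and 10, beside 32.8% and 31.1%. ENO2, an enolase of neurons, was at 2.11, 2.87 and 1.81 TPM in the knockout and 14.2, 17.1 and 16.2 TPM in wild type (−2.38). LDHA, which makes lactate, fell (−0.90), as did PDK1, a kinase that inhibits pyruvate dehydrogenase (−1.31). The glucose transporter SLC2A1 rose (0.73).

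Mitotic genes mostly fell. Of 22 tested, 13 fell and 3 rose (median −0.53), and 15 fell and 3 rose without library 1 (median −0.41). TOP2A, a topoisomerase of dividing cells, was at 134, 188 and 190 TPM in the knockout and 310, 296 and 295 TPM in wild type (−0.83). TPX2 (−0.63), NUSAP1 (−0.81) and KIF11 (−0.88), all of the spindle, fell. CDC20, an activator of the anaphase-promoting complex, rose (0.68). Of these 16 calls, 8 (CCNB2, CDK1, PLK1, AURKB, KIF20A, CENPE, CENPF and ASPM) were lost without at least 1 library.

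Of 26 tested p53 targets 10 rose and 4 fell (median 0.29), beside 14.9% and 22.3% of all genes. Of these 14 calls, 6 were lost without at least 1 library. The counts without knockout library 1 were 16 and 5, beside 32.8% and 31.1%. The cell cycle inhibitor CDKN1A was at 26.6, 33.2 and 44.5 TPM in the knockout and 12.7, 11.06 and 12.5 TPM in wild type (1.42). The apoptosis gene BAX (1.06) and PHLDA3, an inhibitor of AKT (1.54), rose, while PMAIP1 (NOXA) fell to 13.7, 23.2 and 25.6 TPM in the knockout, against 66.7, 56.6 and 63.4 TPM in wild type (−1.58). In the integrated stress list, ATF3 (−1.57), ATF4 (−0.63) and the ATF4 targets PSAT1 (−1.51) and ASNS (−0.68) fell. That list had 4 higher and 5 lower of 22 (median 0.01), and 11 and 7 without library 1. Of its 9 calls over all libraries, 5 were lost without at least 1 library.

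In the interferon list 4 of 14 rose and none fell (median 0.26), and 9 rose and none fell without library 1. BST2 (tetherin) was at 12.7, 17.1 and 17.4 TPM in the knockout and 2.25, 1.98 and 2.71 TPM in wild type (2.33), and IFITM3 (1.37), IRF7 (0.97) and B2M (0.84) rose. Among DNA methylation genes 2 rose and 5 fell of 17 (median −0.44), beside 14.9% and 22.3% of all genes. Of these 7 calls, all but that of TET3 were lost without at least 1 library. The counts without knockout library 1 were 6 and 8, beside 32.8% and 31.1%. The dioxygenase gene TET3 was at 1.51, 3.62 and 4.11 TPM in the knockout and 11.06, 8.50 and 13.6 TPM in wild type (−1.61). TET1 was at 3.43 TPM in library 1 and 18.9 and 19.3 TPM in libraries 3 and 4, against 42.5, 38.9 and 39.8 TPM in wild type (−1.77, adjusted p = 0.0448), a call lost without any one wild-type library. DNMT3B did not pass (0.26, adjusted p = 0.456) but was higher without library 1 (0.58, adjusted p = 0.000156). In the hypoblast and endoderm list 3 rose and 3 fell of 13 (median −0.09). Its fallen members were APOE (−2.34), APOA1 (−2.61) and CER1 (−1.89). GATA6, a factor of primitive endoderm, was at 1.33, 2.09 and 3.14 TPM in the knockout and under 0.1 TPM in every wild-type library. GATA6 could thus enter only as higher. The hypoblast and endoderm list had 5 higher and 4 lower without library 1 (median 0.13, beside 0.02 over all genes).

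**Figure D5:**
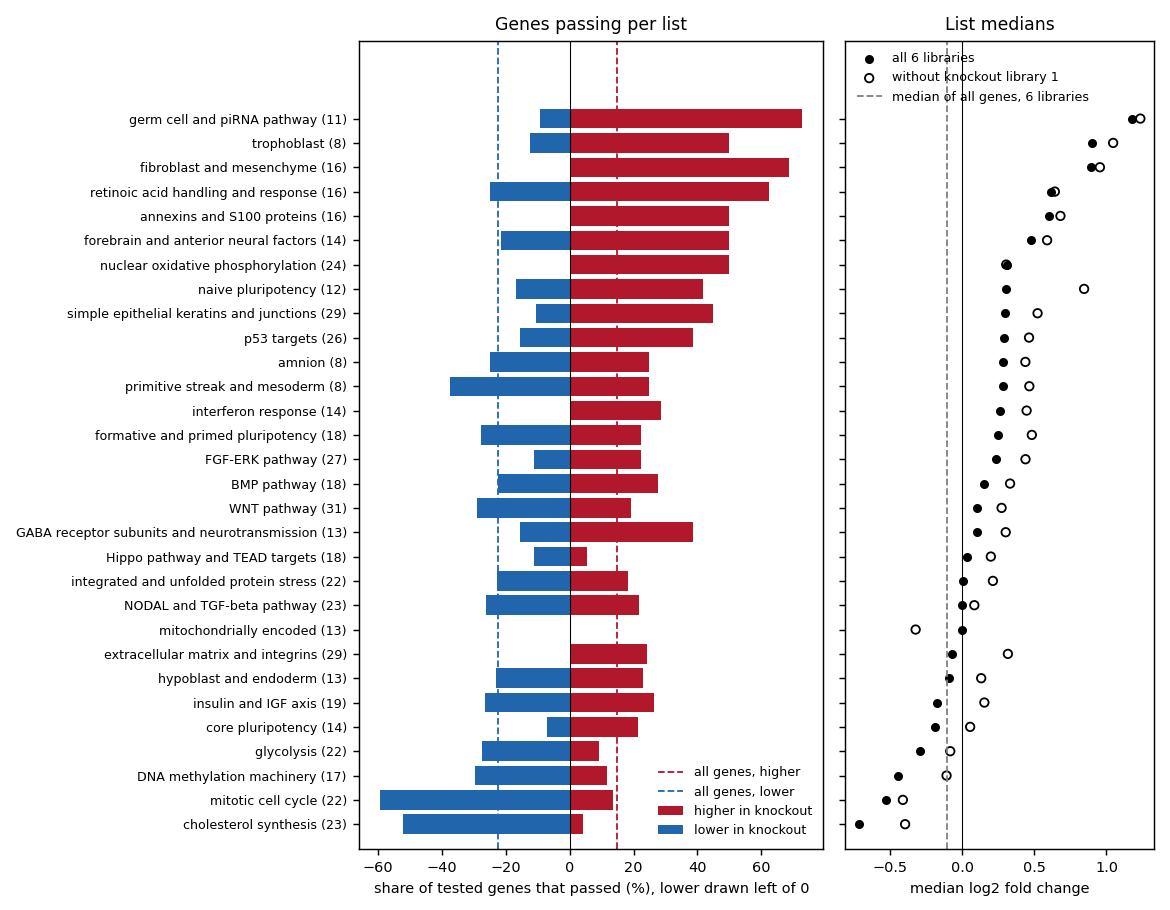
Left, share of tested genes of each list that passed as higher (red, right of 0) or lower (blue, drawn left of 0) in the knockout (%), with dashed lines at the shares over all genes, 14.9% and 22.3%, and the number tested in brackets; right, median log2 fold change of each list over all 6 libraries (filled) and without knockout library 1 (open), with a dashed line at the median of all genes. The dashed line at right, −0.11, is for all 6 libraries, and without library 1 the median of all genes was 0.02. Germ cell and piRNA, mesenchyme and retinoic acid genes have the highest shares of risen genes, and mitotic and cholesterol genes the highest shares of fallen genes.

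The wild-type libraries were also those of the OTX2 overexpression table, with identical values for all 12144 genes in both tables, so both comparisons share their controls and no agreement between them is counted. In that fit 48.9% of 13272 genes were higher and 33.5% lower than wild type. LHX5 averaged 34.9 TPM under overexpression, against 15.5 TPM in wild type (overexpression fold change 1.11), and FEZF1 averaged 11.3 TPM, with an overexpression fold change of 1.82, both genes being lower in the knockout. APOA1 averaged 125 TPM under overexpression (1.38) and APOE 1872 TPM (1.51), and both were lower in the knockout. Other genes were lower than wild type in both fits. HTATIP2 averaged 16.7 TPM under overexpression (−1.32), IRS4 18.3 TPM (−1.27) and CACNB4 1.66 TPM (−2.13). CER1 averaged 2.28 TPM there (−2.55), HMGCS1 205 TPM (−1.82) and CDH2 22.9 TPM (−1.02). GABRG1 (−0.87), HAPLN1 (−0.82), IGFBP3 (−1.40), FGF19 (−1.24) and FGF2 (−1.37) were lower under overexpression and higher in the knockout. ANXA1 averaged 11.4 TPM under overexpression and did not pass there (adjusted p = 0.56), nor did CYP26A1 at 69.1 TPM (adjusted p = 0.7), KRT8 (adjusted p = 0.371) or TFAP2C (adjusted p = 0.928). CRABP1, DHRS3, S100A6 and PMP22 were higher than wild type in both, with overexpression means of 273, 58.3, 38.7 and 34.3 TPM.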

How the data were processed

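Gene expression of pEPSCs was measured by bulk RNA sequencing of TRIzol-extracted RNA, per the labels' protocols. The deposited values are TPM, as the authors computed them, for 12299 genes with a mean TPM above 1 over the 6 libraries. Tools named in the submitters' processing notes, with no role given, include Trim Galore 0.6.6, STAR 2.7.3, StringTie 2.1.4 and featureCounts 2.0.0, and the build was Sscrofa11.1. Each gene's TPM is relative to its library's total, so a large mitochondrial share lowers all other genes of that library. The read depth is unknown, so no counting interval or floor was computed.

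Genes at 1 TPM or more in at least 3 of 6 libraries were tested on log2(TPM + 1), which understates the fold change of low genes, with limma 3.58.1 (trended, robust) in R 4.3.3, as knockout minus wild type. Benjamini-Hochberg adjustment ran over 12255 genes, at a threshold of 0.05, and every adjusted p in the text is from limma. The fit was tested on simulated data. Named genes were OTX2, the 15 highest and 15 lowest fold changes that passed with non-overlapping groups, 5 TPM or more on average in whichever group was higher, and the same call after nuclear rescaling and without knockout library 1, up to 5 genes of each of 32 lists with the smallest adjusted p, and a panel of regulators. Other genes named were chosen after their values were seen. The comparison, lists and rule were chosen with earlier results of these data known. Lists are described by counts and medians and were not tested, and the lists of cleavage-stage genes (1 higher, 1 lower) and blood genes (none) had 3 tested genes each. RefSeq symbols matched 12277 genes, and gene positions are RefSeq's on Sscrofa11.1. The authors' own fold changes and calls were not used.

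The alternatives were 16: nuclear rescaling with and without library 1, each library left out, median-ratio and quantile scaling, no filter, a pseudocount of 0.1, array weights, plain priors, a replicate block, and the filter at 2 libraries, which was added after the data were seen. Some genes are counted in their lists but not reported by name here.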

Additional observations from a re-analysis of the deposited data

How the results depend on the processing

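The count of 4552 genes depended most on single libraries. Leaving out 1 library in turn gave 2055 to 7706 calls, the lowest without wild-type library 1 and the highest without knockout library 1. The filter at 2 libraries, chosen after seeing the data, gave 7846 without knockout library 1, nuclear rescaling without that library gave 7835, and array weights, which weighted it at 0.0621, gave 8497. With the column number as a replicate block, a pairing that no label states, 3528 genes passed. Numbers 1 and 3 are shared between the groups, with correlations of the libraries' deviations of 0.030 and 0.306. The other alternatives gave 4431 to 6032 calls. The 2-fold count stayed within 1.5 times of 1234 throughout, from 966 to 1682, and no gene was called in opposite directions. The OTX2 fold change lay between −1.05 and −1.26. Of 269 called genes of the lists and text, 173 kept the call in every alternative where they were fitted, 89 lost it without at least 1 library, and none reversed. The medians of the core pluripotency, forebrain, hypoblast, NODAL, IGF, stress, mitochondrially encoded, matrix and GABA lists changed sign in at least 1 of the scalings or fits without library 1. The median over all genes changed sign too, to 0.02 without library 1 under the filter at 2 libraries. Depth is unknown, so low genes carry no counting error.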

Other observations

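The families below were picked after their values were seen. Of 6 HOX and CDX genes tested, 5 rose and none fell, where 14.9% of all genes rose and 22.3% fell. These genes set position along the body axis. Beside CDX1, HOXA5 was at 10.2, 12.9 and 20.4 TPM in the knockout and 2.53, 2.69 and 3.16 TPM in wild type (log2 fold change 1.98), and HOXC6 had a fold change of 1.03. HOXC6 was under 1 TPM in every wild-type library and could enter only as higher. The CDX4 and HOXA2 calls were lost without at least 2 of the libraries in turn. HOXA7 did not pass (adjusted p = 0.0974) but was higher without knockout library 1 (1.34, adjusted p = 0.011). Of 6 insulin-like growth factor binding proteins tested, 4 rose and none fell, beside the same shares of all genes. The IGFBP6 call was lost without any one of 4 libraries (highest adjusted p 0.102).

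PEG10, a paternally expressed imprinted gene in the mouse and human, was at 28.7, 56.3 and 54.8 TPM in the knockout and 7.49, 6.97 and 6.04 TPM in wild type (2.55). Its neighbour SGCE, imprinted in the same way in those species, rose as well, to 4.30, 3.63 and 5.36 TPM in the knockout, against 1.85, 1.66 and 1.44 TPM in wild type (1.02). DLK1, another paternally expressed gene, was at 7.07, 6.06 and 9.74 TPM in the knockout and 0.503, 0.320 and 0.426 TPM in wild type (2.59). With every wild-type library under 1 TPM, DLK1 could enter only as higher.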
